A study of Homo sapiens with 55 samples.

Results

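10 genes of Wnt signalling are described here, over every array of a series on gonadotropin-releasing hormone (GnRH) receptor activation: the ligand gene WNT5A, the Frizzled receptor genes FZD1, FZD2, FZD4 and FZD7, the antagonist gene DKK1, and the feedback and effector genes AXIN2, NKD1, LEF1 and TCF7. All probes that the platform annotation assigns to one of these 10 symbols were taken, which gave 14 of the 48803 probes on the array and covered 9 of the 10 genes. TCF7 had no probe under that symbol. Of the 14 probes, 11 probes of 8 genes were detected on at least 3 arrays and were tested, as were 16016 probes in all. The 3 others were detected on 0 of 55 arrays: both NKD1 probes, which read 4.44 to 5.40 on the log2 scale, and the DKK1 probe ILMN_2174189. The tested DKK1 probe, ILMN_1773337, was detected on 17 of 55 arrays, mostly SCL60 arrays under triptorelin. It passed the filter only through groups where it is high, so counts of members that rose include it by that selection.

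The arrays were Illumina bead arrays hybridised with total RNA from human cell lines. SCL60 is a line of HEK293 cells (human embryonic kidney cells) that stably carries the rat GnRH receptor, and parental HEK293 cells, in which the labels give the receptor as undetectable, were used beside it. Cells received the GnRH agonist triptorelin at 100 nM or a propylene glycol vehicle. SCL60 cells were sampled after 0.5, 1, 2, 8 and 24 h of triptorelin (4 arrays each) and as controls at 0 h, 1 h, 8 h and 24 h (4 arrays each, 3 at 1 h). HEK293 cells were sampled after 1 h and 24 h of triptorelin and as controls at 0 h, 1 h and 24 h (4 arrays each). Both lines grew on Matrigel-coated plates, but the medium of SCL60 cells alone contained G418, so the receptor, the antibiotic and the derivation of the line cannot be told apart in a comparison of the lines. Nothing in the labels says whether SCL60 is a single clone or whether replicates came from separate cultures, so p-values measure the spread between these samples, which may be technical.

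Wnt proteins are secreted ligands that bind Frizzled receptors at the cell surface. In the canonical branch, binding with an LRP co-receptor stops the destruction complex from degrading beta-catenin, which then acts with TCF/LEF factors on target genes; AXIN2 and NKD1 are target genes whose products feed back on the pathway, and DKK1 is a secreted antagonist that binds the LRP co-receptors. WNT5A is best known for beta-catenin-independent signalling in cell polarity and movement.

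A probe counts as detected on an array where its detection p-value is under 0.01, which held for 11766 to 14763 probes an array. Replicate arrays correlated at 0.95 to 0.993. The human GNRHR probe was detected on 0 of 55 arrays and does not measure the rat transcript, so the transgene itself was not checked. Of 8 HEK293 marker genes with a probe, 5 (NEFL, NEFM, VIM, KRT8 and KRT18) were detected on all 55 arrays, EYA1 on 41, LHX1 on 14 and the kidney transcription factor gene PAX2 on 0. Markers of other cell types were mostly absent: 5 of 6 fibroblast markers (all but COL1A1, on 25 arrays) and 4 of 5 blood cell markers with a probe (all but CD14, on 39 arrays) were detected on none. Levels are log2 normalised signals, differences are on the same scale, and a gene is said to have risen or fallen where limma's adjusted p was under 0.05.

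DKK1, FZD4 and WNT5A were the 3 members called at both 8 h and 24 h of triptorelin in SCL60 cells, 1 higher and 2 lower, and their promoters are shown because the results turn on them. The sequences are the 250 bases before the annotated start, from RefSeq (GRCh38.p14), 5′ to 3′ on the gene's strand. Of the 10 members, 6 had an entry (FZD1, FZD4, WNT5A, DKK1, LEF1 and TCF7), and FZD2, FZD7, AXIN2 and NKD1 did not. Capitals mark a match to the letters CTTTGAA or CTTTGAT, bound by TCF/LEF factors, on either strand. DKK1 lies on the plus strand at chr10:52314031-52314280, FZD4 on the minus strand at chr11:86955396-86955645, and WNT5A, also on the minus strand, has a first start at chr3:55487307-55487556 and a second at chr3:55481399-55481648.
DKK1: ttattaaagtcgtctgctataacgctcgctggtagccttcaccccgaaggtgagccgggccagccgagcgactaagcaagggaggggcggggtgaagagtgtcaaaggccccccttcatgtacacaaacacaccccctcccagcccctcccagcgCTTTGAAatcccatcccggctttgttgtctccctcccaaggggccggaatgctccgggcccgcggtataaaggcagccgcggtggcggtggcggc
FZD4: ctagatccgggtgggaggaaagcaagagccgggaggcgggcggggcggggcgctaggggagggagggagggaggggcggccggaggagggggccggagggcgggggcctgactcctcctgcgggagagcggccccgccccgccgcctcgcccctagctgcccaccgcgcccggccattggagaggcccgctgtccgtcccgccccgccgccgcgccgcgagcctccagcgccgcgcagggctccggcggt
WNT5A first start: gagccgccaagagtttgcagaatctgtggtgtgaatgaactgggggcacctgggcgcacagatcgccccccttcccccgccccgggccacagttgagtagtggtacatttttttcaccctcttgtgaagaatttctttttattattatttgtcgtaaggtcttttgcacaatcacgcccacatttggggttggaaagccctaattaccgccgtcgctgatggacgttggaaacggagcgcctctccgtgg
WNT5A second start: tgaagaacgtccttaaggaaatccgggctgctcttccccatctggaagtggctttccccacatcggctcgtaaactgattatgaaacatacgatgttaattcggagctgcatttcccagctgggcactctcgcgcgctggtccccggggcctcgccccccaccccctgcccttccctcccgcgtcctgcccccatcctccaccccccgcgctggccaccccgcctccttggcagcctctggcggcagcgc
The DKK1 window held 1 TCF/LEF match, CTTTGAA, which begins 95 bases before the start, and 5.94% of 35116 promoters of that length held such a match. Neither the AP-1 letters TGANTCA (6.57% of promoters) nor the CRE letters TGACGTCA (1.65%) were found on either strand in these 4 windows, and the FZD4 and WNT5A windows held no match to the TCF/LEF letters. A match describes letters only and shows no binding.

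Triptorelin at 8 h changed 5 of the 8 measured genes in SCL60 cells. WNT5A, FZD4 and FZD2 fell, DKK1 rose, and FZD1 rose on both of its probes. Counted by probe, 3 of 11 rose, 3 fell and 5 did not pass, against 10.8% and 12.3% of all 16016 probes (23.2% either way). FZD1 is counted on both its probes among those that rose. The members were chosen with earlier results of these data known, so their share is no test of the set. The median difference of the 11 probes was -0.10, beside -0.02 over all probes. Because cells were measured in bulk, fewer cells with a transcript and less transcript per cell cannot be told apart.

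The ligand gene WNT5A (ILMN_1800317) read 5.10, 5.57, 6.20 and 5.20 on the 4 SCL60 arrays at 8 h of triptorelin, against 7.01, 7.16, 7.28 and 7.33 on the 8 h control arrays. Every treated array lay below every control array, and only 1 of the 4 treated arrays, that at 6.20, was detected. The difference was -1.68 (SE 0.17, limma adjusted p 7e-11), or at least 2.43-fold lower when undetected values are raised to the lowest detected signal of their array. At 24 h the probe was detected on all 8 arrays, with 6.28, 6.81, 6.63 and 6.55 under triptorelin against 7.27, 7.58, 7.11 and 7.49 in controls. The groups again did not overlap, and WNT5A fell by 0.79 on the log2 scale (SE 0.17, limma adjusted p 0.00107; 1.73-fold lower). At 2 h of triptorelin WNT5A had been level, at 7.38 to 7.49 on 4 arrays against 7.29 to 7.86 on the 3 control arrays at 1 h (difference -0.05, limma adjusted p 0.964). The labels give 2 hybridisation batches, in which a group has 1 to 3 arrays, so a lone array is assumed there to vary like the other groups. Within batches 1 and 2 the 8 h differences were -1.57 and -2.07, both called, and the 24 h differences were -0.73 and -0.98, neither called (limma adjusted p 0.0554 and 0.13).

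FZD4 (ILMN_1743367) encodes a Frizzled receptor known for its part in retinal vessel growth. It fell at 2 h, 8 h and 24 h. Its level was 5.60, 5.08, 5.15 and 5.20 on the 8 h triptorelin arrays, none of them detected, against 7.13, 6.73, 7.45 and 7.36 on the 8 h control arrays, all detected. The groups were more than 1 log2 unit apart at their closest, the difference was -1.91 (SE 0.17, limma adjusted p 5.32e-13), and FZD4 was at least 2.64-fold lower. At 24 h, with 3 of 4 treated arrays detected, it read 5.90, 6.32, 5.73 and 5.73 under triptorelin against 7.27, 7.21, 7.70 and 7.48 in controls. These groups did not overlap either (difference -1.50, SE 0.17, limma adjusted p 1.89e-09; at least 2.78-fold lower). Since the 8 h level lies under the detection limit, the 2 bounds give no order between 8 h and 24 h. Within batches 1 and 2 the 8 h differences were -1.95 and -1.65 and the 24 h differences -1.54 and -1.37, all called.

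FZD2 (ILMN_1653711), another Frizzled receptor gene and one linked to WNT5A signalling, was detected on all 55 arrays. At 8 h it read 7.56, 7.48, 7.92 and 7.71 under triptorelin against 8.74, 8.68, 8.89 and 9.13 in SCL60 controls. The groups did not overlap, and FZD2 fell by 1.19 (SE 0.21, limma adjusted p 2.26e-05; 2.28-fold lower), with -1.08 and -1.37 within batches 1 and 2, both called. At 24 h the treated arrays read 8.14, 8.30, 8.64 and 8.73 and the control arrays 8.82, 8.51, 9.26 and 9.23, so that the groups overlapped. That difference of -0.50 did not pass (limma adjusted p 0.133) but did with the replicate number as a block (limma adjusted p 0.00315). In SCL60 cells the same-numbered arrays deviated together, and replicate 2 was the lowest FZD2 array in each control group.

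FZD1, a further Frizzled receptor gene, has a pair of probes near the detection limit. On ILMN_1696546 it read 6.46, 6.66, 6.05 and 6.41 at 8 h of triptorelin, against 5.37, 5.73, 5.53 and 5.64 in 8 h controls, with no overlap (difference 0.83, SE 0.21, limma adjusted p 0.00334). On ILMN_2222065 it read 6.56, 7.01, 6.40 and 6.89 under triptorelin against 6.45, 6.12, 6.27 and 5.92 in controls. Here 1 control array, at 6.45, lay above the lowest treated array, and the rise was 0.53 (SE 0.17, limma adjusted p 0.0214). Within batches 1 and 2 neither probe was called (0.75 and 0.95 on the first, 0.57 and 0.38 on the second). The call on ILMN_2222065 was lost without triptorelin 8 h replicate 2 (0.43) or 4 (0.47), or without control 8 h replicate 4 (0.44), and at the same 0.53 with no filter on dim probes (limma adjusted p 0.0525) or with only the groups compared (limma adjusted p 0.116). At 24 h the differences were 0.14 and 0.46 (limma adjusted p 0.791 and 0.0853), and the second passed without triptorelin 24 h replicate 1 (0.57, limma adjusted p 0.0469).

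FZD7, a Frizzled receptor gene abundant in stem and tumour cells, was detected on all 55 arrays by both its probes, which gave different results. At 8 h ILMN_1804351 differed by 0.40 (limma adjusted p 0.0603) and ILMN_2108823 by -0.10 (limma adjusted p 0.813). On the first it read 7.32, 7.75, 7.37 and 7.13 under triptorelin against 6.75, 7.10, 7.31 and 6.80 in controls, and on the second 6.95, 6.57, 6.88 and 7.88 against 7.60, 7.02, 6.92 and 7.12. Treated and control arrays overlapped on both probes. The value of 0.40 passed with the replicate block (limma adjusted p 0.0168), without triptorelin 8 h replicate 4 (0.49) and without control 8 h replicate 3 (0.51). At 24 h the probes differed by 0.09 and -0.11, neither passing.

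DKK1, the secreted antagonist, was undetected or barely detected in control cells and rose at 2 h, 8 h and 24 h. ILMN_1773337 read 8.26, 8.55, 8.67 and 8.42 on the SCL60 arrays at 8 h of triptorelin, against 4.96, 4.86, 5.31 and 5.52 on the 8 h control arrays, of which only the last was detected. The groups lay far apart: the difference was 3.31 (SE 0.16, 95% interval 3.00 to 3.63, limma adjusted p 6.92e-23) and DKK1 was at least 7.05-fold higher. At 24 h it read 8.32, 7.98, 8.50 and 7.90 under triptorelin against 5.28, 5.37, 5.02 and 5.07 in controls, none of them detected. It was thus at least 5.69-fold higher at 24 h (difference 2.99, SE 0.16, limma adjusted p 7.02e-21). Within batches 1 and 2 the 8 h differences were 3.46 and 3.02 and the 24 h differences 2.97 and 3.04, all called. The other DKK1 probe, ILMN_2174189, which the annotation assigns to the same transcript record, stayed at 4.33 to 4.61 on all 55 arrays and was detected on none. The rise of DKK1 therefore rests on 1 probe, and the probe sequences were not used here.

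AXIN2 (ILMN_1724480), a scaffold of the destruction complex and a canonical target gene, was detected on all 55 arrays. At 8 h it read 7.14, 7.23, 7.31 and 6.96 under triptorelin against 7.20, 7.21, 7.49 and 7.43 in controls, overlapping groups that differed by -0.17 (95% interval -0.50 to 0.16, limma adjusted p 0.482). At 24 h the 4 treated arrays, at 6.43, 6.95, 6.85 and 6.85, all lay below the control arrays at 7.02, 7.49, 7.07 and 7.36. The difference of -0.46 did not pass (limma adjusted p 0.0637). It did with the replicate number (limma adjusted p 0.0314) or the labelling batch (limma adjusted p 0.0467) as a block. It also passed with the chip as a block (-0.50, limma adjusted p 0.0388) or without control 24 h replicate 1 (-0.53, limma adjusted p 0.0483). LEF1, a TCF/LEF transcription factor gene that is also a canonical target, was detected on all arrays by both its probes. At 24 h ILMN_1679185 read 8.55 to 9.25 under triptorelin against 8.87 to 9.64 in controls, and ILMN_2213136 read 8.46 to 9.01 against 8.76 to 9.07. The LEF1 differences were -0.13 and -0.01 at 8 h and -0.29 and -0.09 at 24 h, and the treated and control arrays overlapped on each probe at both times. None of the 4 LEF1 values passed, and the widest 95% interval among them, at 24 h on ILMN_1679185, reached -0.64.

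At 24 h, 3 of the 8 genes were called, with 1 of 11 probes higher and 2 lower, against 4.36% and 5.14% of all probes (9.50% either way). The 1 probe higher was that of DKK1, which passed the filter only through groups where it is high. With the replicate block 5 genes were called, FZD2 and AXIN2 in addition. Groups did not overlap for 5 probes at 8 h and 4 probes at 24 h, where the share of all probes was 19.3% and 12.3%. The plot of levels by time shows the 5 genes called at 8 h.

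**Figure D1:**
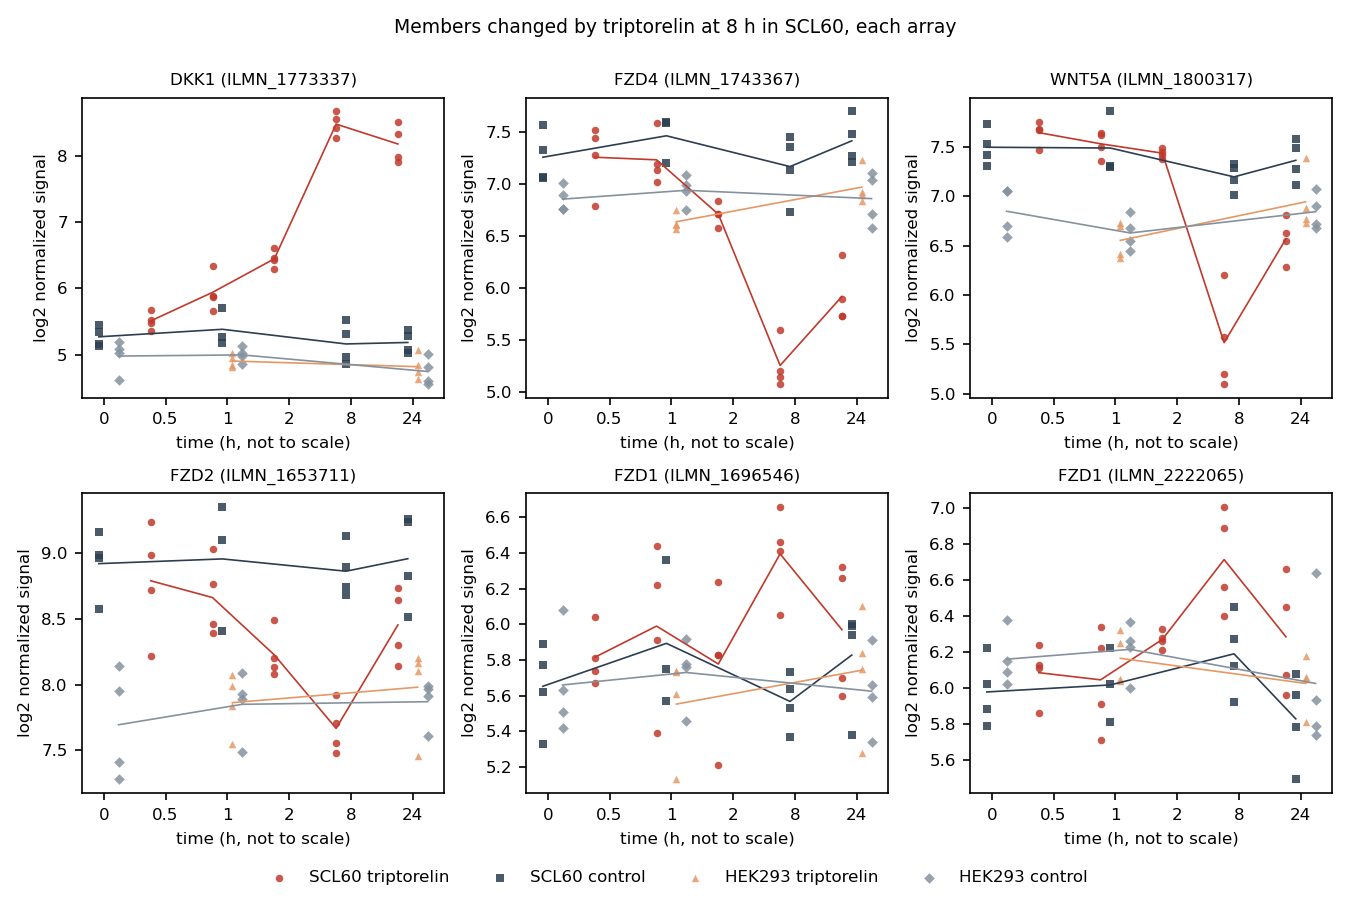
Log2 normalised signal of each array (points) against time (h, categories not to scale) for the probes of DKK1, FZD4, WNT5A, FZD2 and FZD1 called at 8 h; lines join group means, and the legend gives line and treatment. In SCL60 cells DKK1 stands at 8.26 to 8.67 at 8 h of triptorelin against 4.86 to 5.52 in controls, while FZD4 and WNT5A lie below their controls at 8 h and 24 h, with 0 and 1 of 4 arrays detected at 8 h.

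The earlier times show when these differences appeared. Triptorelin at 0.5, 1 and 2 h was set against the same 3 control arrays at 1 h, so these comparisons are not independent, and at 0.5 and 2 h handling time and triptorelin cannot be told apart. DKK1 read 5.36 to 5.67 at 0.5 h (0 of 4 arrays detected), 5.66 to 6.34 at 1 h (3 of 4) and 6.29 to 6.61 at 2 h (4 of 4), against 5.18 to 5.70 in the controls (1 of 3). The 2 h arrays lay above all controls and the 0.5 h and 1 h arrays overlapped them. Its differences were 0.12 at 0.5 h and 0.55 at 1 h, which did not pass (limma adjusted p 1 and 0.295), and 1.06 at 2 h (SE 0.17, limma adjusted p 3.5e-05; at least 1.76-fold higher).

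FZD4 read 6.71, 6.58, 6.84 and 6.71 at 2 h of triptorelin against 7.20, 7.59 and 7.60 in the 1 h controls, a fall of 0.76 (SE 0.18, limma adjusted p 0.0138) between groups that did not overlap. The call was lost without control 1 h replicate 3 or 4 (both -0.69), without triptorelin 2 h replicate 2 (-0.71) and with the 0 h controls in place of the 1 h ones (-0.55, limma adjusted p 0.0812). FZD7 on ILMN_1804351 read 8.00, 7.68, 7.71 and 7.63 at 2 h against 7.49, 6.92 and 6.91 in controls, a rise of 0.65 (SE 0.17, limma adjusted p 0.0401), while ILMN_2108823 gave 0.01. That rise was lost without any of triptorelin 2 h replicates 1, 2 and 3 (0.56, 0.67 and 0.66) or control 1 h replicates 3 and 4 (both 0.55).

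FZD2 at 2 h read 8.13, 8.08, 8.49 and 8.20 against 8.41, 9.35 and 9.10, overlapping groups, and its difference of -0.73 did not pass (limma adjusted p 0.109). It did with the replicate block (-0.71, limma adjusted p 0.000509), and without control 1 h replicate 2, the low control array, it was -1.0 (limma adjusted p 0.0218). Both LEF1 probes lay below all 3 controls at 2 h (differences -0.47 and -0.41) without passing (limma adjusted p 0.283 and 0.259). In all, 3 genes were called at 2 h, with 2 probes higher and 1 lower, against 0.968% and 0.350% of all probes (1.32% either way), and groups did not overlap for 5 probes, against 10.8% of all. Within hybridisation batch 1 or 2 alone, with 1 or 2 arrays a group, none of the 3 was called, at -0.63 and -0.94 for FZD4, 0.47 and 0.91 for FZD7 and 0.93 and 1.25 for DKK1. At 1 h and 0.5 h limma called 0 members (0.500% and 0.0999% of all probes), and 2 and 0 member probes had an unadjusted p under 0.05.

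**Figure D2:**
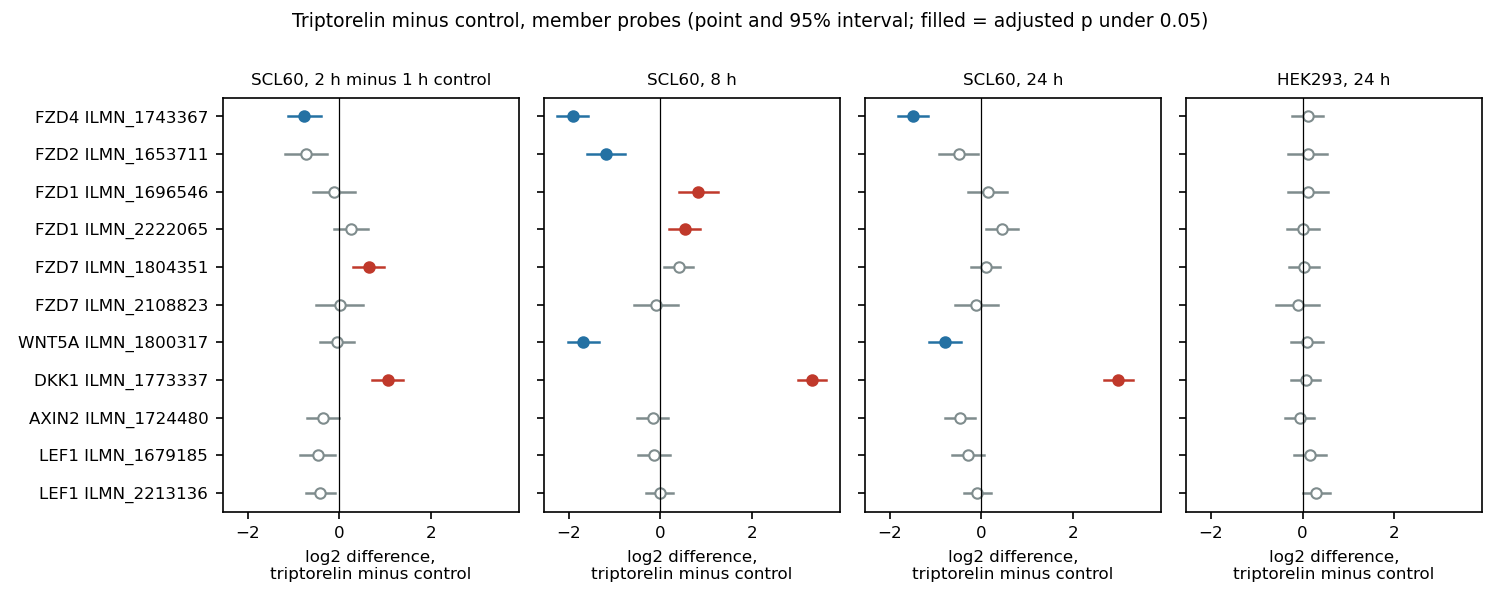
Log2 difference, triptorelin minus control, of the 11 member probes (points) with 95% intervals (lines) in SCL60 at 2 h against 1 h controls, 8 h and 24 h, and in HEK293 at 24 h; filled points have a limma adjusted p under 0.05. At 8 h DKK1 stands at 3.31, FZD4 at -1.91, WNT5A at -1.68 and FZD2 at -1.19, while the 11 HEK293 values run from -0.10 to 0.30.

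In HEK293 cells, which lack the receptor transgene, limma called 0 members at 1 h and 0 at 24 h (0% of all probes at each time), and 0 and 1 member probes had an unadjusted p under 0.05. At 24 h DKK1 read 4.63 to 5.07 under triptorelin against 4.56 to 5.01 in controls, with 0 of 8 arrays detected. FZD4 read 6.84 to 7.23 against 6.58 to 7.11, and WNT5A 6.73 to 7.39 against 6.68 to 7.07, so treated and control arrays overlapped for all 3. The exception was the LEF1 probe ILMN_2213136, whose treated arrays (9.31 to 9.71) lay above the controls (9.03 to 9.23), a difference of 0.30 with a limma adjusted p of 1, where 1.45% of all probes had groups that did not overlap.

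The difference of the 24 h effects, SCL60 minus HEK293, was tested directly. It was 2.92 for DKK1 (SE 0.22, limma adjusted p 2.47e-14), -1.61 for FZD4 (SE 0.24, limma adjusted p 4.23e-06) and -0.89 for WNT5A (SE 0.24, limma adjusted p 0.0256), so that 3 genes were called, with 1.80% of all probes higher and 1.73% lower (3.53% either way). Within batches 1 and 2 it was 2.70 and 3.17 for DKK1, both called, -1.59 (called) and -1.54 (limma adjusted p 0.115) for FZD4, and -0.91 and -1.0 for WNT5A, neither called. The WNT5A call was also lost without HEK293 control 24 h replicate 4 (-0.84), HEK293 triptorelin 24 h replicate 4 (-0.74), SCL60 triptorelin 24 h replicate 1 (-0.80), or SCL60 control 24 h replicate 2 (-0.82) or 4 (-0.85). It was lost too, at the same -0.89, with no filter on dim probes (limma adjusted p 0.0705) or with only the groups compared (limma adjusted p 0.0934).

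Between 8 h and 24 h in SCL60 cells, the triptorelin effect on WNT5A differed by 0.89 (24 h minus 8 h, SE 0.24, limma adjusted p 0.0299), the fall being smaller at 24 h. WNT5A was the 1 member called, as were 1.47% of all probes higher and 1.21% lower (2.68% either way). This call did not hold in 16 of the 30 alternative fits, among them those without triptorelin 24 h replicate 2, 3 or 4, control 24 h replicate 1 or 3, triptorelin 8 h replicate 1 or 4, or control 8 h replicate 3 or 4 (0.75 to 0.89), and within batches 1 and 2 the differences were 0.84 and 1.09, neither called. With the replicate block 2 genes were called, WNT5A (0.89, limma adjusted p 0.0108) and FZD2 (0.69, limma adjusted p 0.0104). The 8 h arrays of WNT5A were mostly undetected, so the size of the difference between the times is not fixed.

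Control cells of the 2 lines differed in 5 of the 8 genes. Counted by probe, 4 of 11 were higher in SCL60 and 1 lower, against 21.2% and 19.6% of all probes (40.8% either way). That share was near the background, so these calls describe single genes and not the members as a set. On the mean of the 0 h, 1 h and 24 h controls, FZD2 was higher in SCL60 than in HEK293 cells by 1.14 (SE 0.12, limma adjusted p 1.12e-10; 2.20-fold), with SCL60 arrays at 8.41 to 9.35 and HEK293 arrays at 7.28 to 8.14. WNT5A was higher by 0.67 (SE 0.10, limma adjusted p 3.3e-07; 1.60-fold) and FZD4 by 0.49 (SE 0.10, limma adjusted p 5.96e-05; 1.41-fold). FZD7 was lower on ILMN_1804351 (-0.41, limma adjusted p 0.000357) and not called on ILMN_2108823 (-0.14). DKK1 differed by 0.37 (limma adjusted p 0.00111), on a probe detected on none of the 12 HEK293 control arrays and on 1 of these 11 SCL60 arrays, so no fold is given. Within batch 2 FZD4 (0.32), FZD7 (-0.33) and DKK1 (0.42) were not called. Marker genes moved between the lines as well: 6 of 9 HEK293 marker probes were lower in SCL60, among them NEFL (-3.17) and NEFM (-3.03), 2 were higher, COL1A1 was higher (0.52) and CD14 lower (-0.34). Their part in the members' differences was not tested. In controls at 24 h against 0 h, limma called 0 members in SCL60 and 0 in HEK293 (0% of all probes in each), and 0 member probes in either line had an unadjusted p under 0.05.

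The levels over all 14 groups place these changes. DKK1 was at or near the detection limit in the 5 HEK293 groups, the SCL60 controls and SCL60 at 0.5 h of triptorelin (4.75 to 5.51, with 0 to 1 array a group detected), and no order is given among these. Above them came triptorelin in SCL60 at 1 h (5.94 ± 0.28, SD, n = 4, 3 arrays detected), 2 h (6.44 ± 0.13), 24 h (8.18 ± 0.28) and 8 h (8.48 ± 0.18), where each step between neighbours was wider than the larger SD of the pair. FZD4 lay below all its other groups in SCL60 at 8 h (5.26 ± 0.23, 0 of 4 arrays detected) and 24 h of triptorelin (5.92 ± 0.28, 3 of 4), with no order between the 2, and the step from 24 h up to the next group was wider than the SDs. The other 12 FZD4 groups ran from 6.64 to 7.47, with 1 more such step, above SCL60 at 2 h of triptorelin (6.71 ± 0.11).

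WNT5A at 8 h of triptorelin in SCL60 (5.52 ± 0.50) was detected on 1 of 4 arrays, so it lay below the other groups by a distance that the detection limit leaves unfixed. Its SCL60 level at 24 h of triptorelin (6.57 ± 0.22) lay among the HEK293 groups (6.55 to 6.94), and SCL60 controls and early triptorelin groups ran from 7.20 to 7.64. FZD2 had 0 of 13 steps wider than the SDs: SCL60 at 8 h of triptorelin (7.67 ± 0.19) stood beside the HEK293 groups (7.69 to 7.98), with SCL60 at 2 h (8.22 ± 0.18) and 24 h (8.45 ± 0.28) of triptorelin between these and the SCL60 controls (8.86 to 8.96). For AXIN2 and one LEF1 probe no step was wider than the SDs, and the other LEF1 probe had 1 such step.

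**Figure D3:**
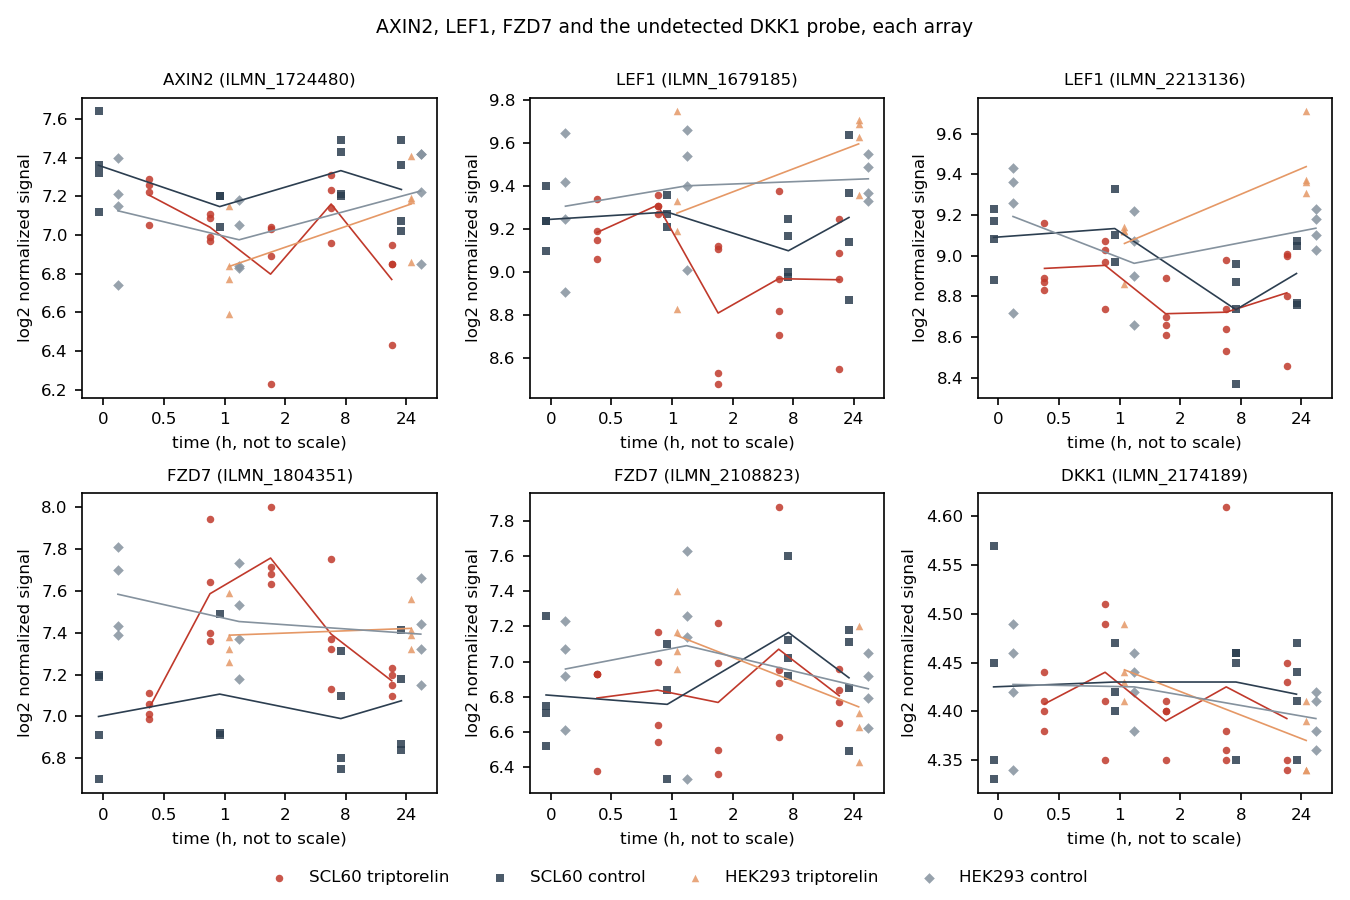
Log2 normalised signal of each array (points) against time (h, categories not to scale) for AXIN2, the LEF1 and FZD7 probe pairs and the second DKK1 probe; lines join group means. The 55 arrays of ILMN_2174189 run only from 4.33 to 4.61, and SCL60 triptorelin arrays of AXIN2 at 24 h (6.43 to 6.95) lie below their controls (7.02 to 7.49).

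Over the 14 group means, which share arrays, normalisation and treatment, FZD4 and WNT5A correlated at 0.88 and FZD4 and DKK1 at -0.81, while FZD2 and DKK1 stood at -0.10. The genes with the most similar profile to DKK1 were LBH and TUBB2A (both r = 0.982) and CGA (0.979), among 12035 probes. Those most like FZD4 were CGNL1 (0.985), CEP131 and IDH1 (both 0.973), and those most like WNT5A were PRKCH (0.968), COQ8A (0.966) and KLHL3 (0.960). FZD2 was most like VASH1 (0.981), ZFP90 (0.978) and ZNF462 (0.971). The first FZD1 probe was most like WDR12 (0.930), DDX21 and PPP1R3F (both 0.923), and the second like TFAM (0.942), GCH1 (0.926) and B3GNT2 (0.925). These are descriptions of 14 means each, the undetected ones of DKK1, FZD4 and WNT5A included.

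The rest of the pathway was followed in 10 lists holding 122 genes, of which 120 had a probe and 77 were tested, each by its brightest probe. In SCL60 cells at 8 h of triptorelin 5 of the 77 rose and 15 fell (26.0%), a share near the 25.5% of 10467 named genes called, of which 1210 rose and 1461 fell, so the 8 h calls below describe single genes and not the pathway. The median difference of the 77 was -0.11 beside -0.027 over named genes. At 24 h 3 rose and 11 fell (18.2% of the 77), against 5.03% and 5.94% of named genes, with a median of -0.22 beside -0.019. The 24 h effect in SCL60 minus that in HEK293 was called for 3 of the 77 (3.90%), all lower. For that difference 217 of the 10467 named genes were higher and 212 lower. The lists were chosen with earlier results of these data known, so these shares are no test of the pathway. At 2 h limma called 0 of the 77, against 1.61% of named genes.

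Among surface receptors, 3 of 11 fell at 8 h: ROR2, the receptor tyrosine kinase through which WNT5A signals (-1.12, limma adjusted p 4.54e-08), FZD8 (-0.69) and ROR1 (-0.58, with -0.17 and no call on its other probe). ROR2 averaged 6.04 ± 0.15 under triptorelin against 7.16 ± 0.16 in controls (SD, n = 4 each, 3 of the 4 treated arrays detected), and at 24 h it was no longer called, the 24 h effect being higher than the 8 h effect by 0.87 (limma adjusted p 0.0092). FZD8 was lower at 24 h too (-0.93, limma adjusted p 0.00044), as it was against the HEK293 effect (-1.0, limma adjusted p 0.0201). Of 6 ligand genes 1 rose, WNT3A, which activates the canonical branch (0.76 at 8 h, 0.59 at 24 h). It was detected on 2 of 4 treated arrays at 8 h and 1 of 4 at 24 h, against 0 of 4 controls at each time, so no fold is given. In the R-spondin axis, which controls how much Frizzled receptor stays at the surface, LGR5 rose (0.85) and LGR4 fell (-0.60) at 8 h, 2 of 6 genes.

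Of the 6 genes measured in the list of other Wnt antagonists, not all of them secreted, 0 rose at 8 h. SOSTDC1 was the 1 that fell (-1.55, SE 0.16, limma adjusted p 1.5e-10). At 24 h SOSTDC1 was lower (-0.54, limma adjusted p 0.0238) and APCDD1, a membrane-bound inhibitor, was higher by 0.66 (limma adjusted p 0.00276). Within the destruction complex 1 of 9 genes rose at 8 h, the kinase gene CSNK1D (0.66, and 0.73 on its other probe), and 1 fell, AMER1 (-0.70), which was also lower at 24 h (-0.69). The kinase gene CSNK1A1 was not called on its brightest probe (0.18 at 8 h, 0.15 at 24 h), was higher on ILMN_2364174 (0.57 at 8 h, limma adjusted p 0.00152, and 0.53 at 24 h, limma adjusted p 0.00807) and was not called on ILMN_1775058 (0.39 and 0.48). Of 9 genes that act at Dishevelled and beta-catenin, 3 fell at 8 h: CTNNBIP1, an inhibitor of beta-catenin binding to TCF (-1.13), FRAT2 (-1.13) and FRAT1 (-0.43), both GSK3-binding proteins. CTNNBIP1 (-0.94) and FRAT2 (-0.36) were lower at 24 h as well.

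Among 9 nuclear factors, BCL9, a beta-catenin co-activator gene, and TLE1, a co-repressor gene, fell at both times (-0.78 and -0.58 at 8 h, -0.71 and -1.11 at 24 h), and PYGO1 rose at 8 h (0.71, limma adjusted p 0.0498). Of 8 other target genes of beta-catenin, 1 rose and 2 fell at 8 h, where 25.5% of named genes were called either way. At 24 h 1 rose and 4 fell, against 5.03% and 5.94% of named genes, in a list chosen with earlier results of these data known. MYC was among those that fell at 24 h (-0.49, limma adjusted p 0.0296), with -0.55 and no call on its other probe. The MYC call did not hold in 6 of 22 alternative fits. At 8 h and 24 h CD44, an adhesion receptor gene, rose by 1.36 and 0.92 (1.62 and 1.04 on its other probe), TNFRSF19 was lower (-1.02 and -0.71), the Notch ligand gene JAG1 was lower (-0.64 and -0.58), and the adhesion gene NRCAM was lower at 24 h (-0.98). In the planar polarity list 2 of 12 fell at 8 h, VANGL2 (-0.85) and DAAM2 (-0.65), and 0 at 24 h; a dimmer ANKRD6 probe was also lower at 8 h (-0.55, limma adjusted p 0.021). Among the 8 h calls, that of FRAT1 did not hold in 14 of 21 alternative fits, ROR1 in 11 of 22 (-0.34 without triptorelin 8 h replicate 4), PYGO1 in 10, TLE1 in 8, DAAM2 in 6 and LGR4 in 4. Among the 24 h calls, that of FRAT2 did not hold in 10 of 22 (-0.23 without triptorelin 24 h replicate 1), nor SOSTDC1 in 8 (-0.39 without triptorelin 24 h replicate 3, -0.23 within batch 2), WNT3A in 8 (0.40 without triptorelin 24 h replicate 2, 0.29 with no background correction) and CTNNBIP1 in 4. WNT3A, ROR1, LGR5 and FRAT1 were detected on all arrays of neither group at 8 h. Beside these, 2 of 9 HEK293 marker probes were higher at 8 h, NEFM by 1.76 and KRT8 by 0.56, and CD14 by 0.51, while 1 VIM probe was lower at 24 h (-0.51). Their part in the results at 8 h and 24 h was not tested.

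**Figure D4:**
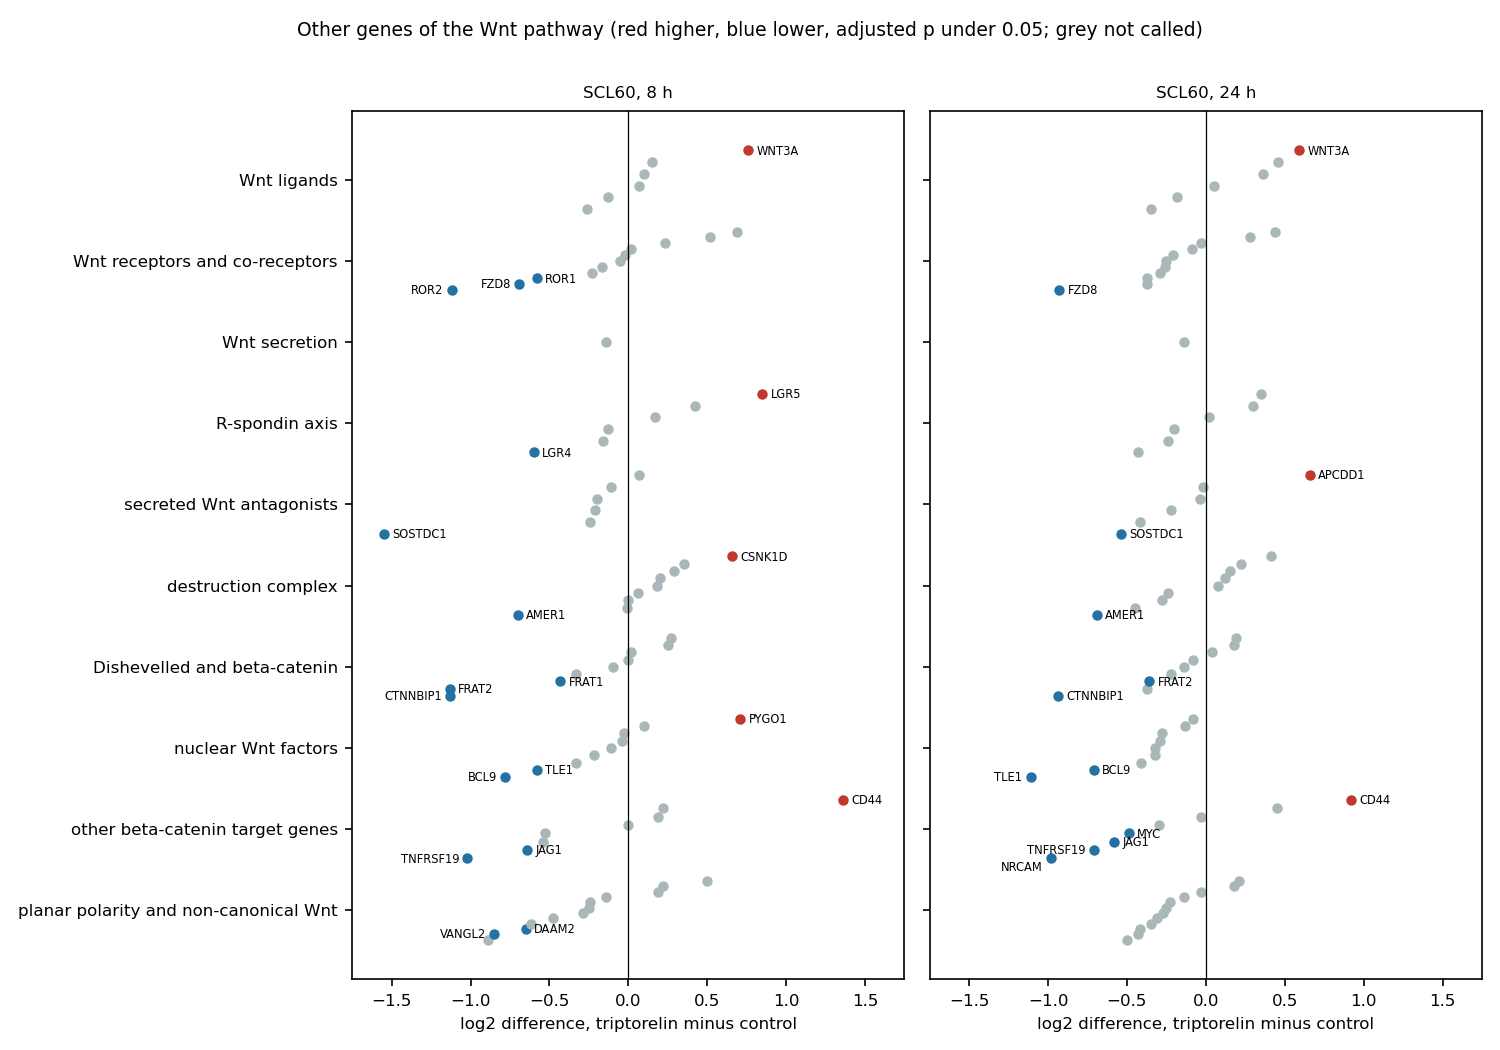
Log2 difference, triptorelin minus control, in SCL60 cells at 8 h and 24 h for the 77 other Wnt pathway genes tested, 1 point per gene in rows by list; red points rose and blue points fell at a limma adjusted p under 0.05, and grey points were not called. At 8 h the called genes run from SOSTDC1 at -1.55 to CD44 at 1.36.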

How the data were processed

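Total RNA of 55 samples was labelled and hybridised to Illumina arrays, per the labels' protocols. The authors deposited, per the file headers, a non-normalized intensity and a detection p-value for each probe and array, and a second table of intensities normalized by the authors; signals are whole numbers in hybridisation batch 1 (33 arrays, at least 99.996% of values) and have decimals in batch 2 (22 arrays), so the authors' export differed between them; the scanning software is not given in the sources used here. Array medians were 44 to 75, and the number of arrays limits the precision.

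Intensities were corrected for background with normexp in limma (3.58.1, R 4.3.3), with the negative controls' mean and spread inferred from the deposited detection p-values and 16 added. Arrays were brought to one distribution by quantile normalization, and log2 was taken; a log2 difference is thus computed here from deposited intensities, and a fold is 2 to its power. Probes with a detection p-value under 0.01 on at least 3 arrays were kept. The limma model held a separate mean for each of the 14 groups across the 55 arrays, with a moderated test, an intensity trend and Benjamini-Hochberg adjustment over 16016 probes. Calls had an adjusted p under 0.05. The fit was tested on simulated data.

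All probes of the members were named whatever their values. From each pathway list up to 4 called genes with the largest difference were named where SCL60 was compared with its own controls. MYC and dimmer probes of CSNK1A1 and ANKRD6 were given besides. In the other comparisons at most 2 were named, and not from every list with calls. The 3 genes most alike were taken by Pearson correlation of group means. The members and lists were chosen with earlier results of these data known. In the SCL60 comparisons same-numbered arrays deviated together in every pair (r 0.23 to 0.41 at 8 h, 0.42 to 0.62 at 24 h). Such arrays mostly shared a labelling batch, and some replicate numbers shared a labelling batch with each other. The 8 h arrays of replicate 1 came from different labelling batches but the same chip (r 0.41). How far paired samples and batch each account for the shared deviation was not tested. The main model was unpaired, and fits with the replicate number as a block are given as alternatives. Alternatives covered background, source table, normalization, filter, probes per gene, batches, replicate block, arrays in the fit, variance trend, controls and single arrays. The rat transgene is not measured.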

Additional observations from a re-analysis of the deposited data

Results flagged for a closer look

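In 5 of 143 sets of 4 arrays of a member probe, 1 array lay further from the other 3 than Dixon's test allows at the 95% level; chance flags about 5% of such sets. They were FZD1 (ILMN_1696546) in SCL60 controls at 24 h, where replicate 1 read 5.38, FZD2 in HEK293 cells at 24 h of triptorelin, where replicate 2 read 7.46, and FZD7 (ILMN_2108823) in SCL60 cells at 0.5 h of triptorelin, where replicate 1 read 6.38. LEF1 (ILMN_2213136) had replicate 1 at 8.86 in HEK293 cells at 1 h of triptorelin and replicate 3 at 9.71 in HEK293 cells at 24 h of triptorelin. The triptorelin effect at 24 h differed between SCL60 and HEK293 cells for DKK1 (2.92), FZD4 (-1.61) and WNT5A (-0.89), and between 24 h and 8 h in SCL60 cells for WNT5A (0.89), by a contrast of the effects in limma.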

How the results depend on the processing

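The 21 called member values were refitted 571 times under alternatives; 513 kept their direction and their call, 58 kept the direction and lost the call, and 0 reversed. DKK1, FZD4, WNT5A and FZD2 kept their 8 h calls in all 22 alternatives each, and DKK1 and FZD4 their 24 h calls. The count of member genes called ran from 4 to 6 at 8 h (5 to 6 leaving out 1 array). With the labelling batch or the replicate number as a block 5 genes were called at 24 h and 2 for the 24 h minus 8 h difference; the replicate block also called FZD2 in the difference between lines (-0.61, limma adjusted p 0.0231), and lost no member's call. At 2 h the count was 0 within hybridisation batch 1, 0 within batch 2 and 1 with only the groups compared. For the 24 h minus 8 h difference it was 0 with no background correction, the authors' normalized values, no filter, the chip as a block, only the groups compared and within either batch. Within batch 2 it was 1 for the difference between lines and 2 for the control lines. Leaving out 1 array gave 3 to 4 genes at 24 h, 1 to 4 at 2 h, 0 to 1 for the difference of times, 2 to 3 for that of lines and 5 for the control lines. Fewer arrays enter the fits within a batch or of the compared groups alone; the cause of the other changes was not tested. Over all probes the counts ran from 1138 to 5434 at 8 h (3710 as reported), 150 to 2673 at 24 h (1522), 42 to 488 at 2 h (211), 19 to 110 at 1 h (80), 1 to 31 at 0.5 h (16), 67 to 1177 for the difference between lines (566), 5 to 1131 for that between times (429) and 3908 to 7911 for the control lines (6534); HEK293 at 1 h gave 0 to 1. Signals near the detection limit bound the falls of FZD4 and WNT5A and the rise of DKK1, so the size of these folds is not fixed in the main processing. The least folds given hold for that processing only. Over the 14 alternatives other than single arrays, the 8 h differences ran from -1.95 to -1.13 for FZD4, -2.07 to -1.01 for WNT5A and 2.22 to 3.46 for DKK1. At 24 h they ran from -1.54 to -0.98 for FZD4 and 1.95 to 3.04 for DKK1.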
